A study of Mus musculus with 15 samples.

Results

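The Hox cluster genes encode homeodomain transcription factors that lie side by side in 4 chromosomal clusters, HoxA to HoxD. The members were taken as every protein-coding gene whose symbol is Hoxa, Hoxb, Hoxc or Hoxd followed by a number, and 39 of the 54232 rows of the count table met that rule. Striatal RNA of 15 mice was sequenced at 6 months of age in a library each, with 4 mice of genotype KI-96, 4 of genotype E1 and 7 of genotype WT. The study concerns knock-in mice for Huntington's disease; the alleles behind the names KI-96 and E1, the sex of the mice and any treatment were not stated in the labels. Age and tissue were the same in all groups.

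In the embryo, Hox genes are switched on along the body axis in the order in which they lie in their cluster, low-numbered genes toward the head and high-numbered genes toward the tail. The forebrain, which gives rise to the striatum, forms in front of the domain of Hox expression. There the clusters are kept silent by Polycomb complexes: PRC2 places the methyl mark on lysine 27 of histone H3 and PRC1 binds the marked chromatin and compacts it. Trithorax-group proteins of the MLL family act against them and keep active Hox genes on. The comparison asked whether the clusters were still silent in KI-96 and E1 striatum; RNA was measured, and no chromatin mark.

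The depth per library was 14678565 to 23373551 counts for KI-96, 18199927 to 19533231 for E1 and 17281603 to 26388542 for WT. Summed markers of spiny projection neurons, the main cell type of the striatum, were 5369 to 8312 CPM (counts scaled by the library total) in KI-96, 6574 to 9773 in E1 and 6119 to 9021 in WT, and all 10 listed markers were read. A set of 3 libraries stood apart by markers of cortical excitatory neurons: E1 replicate 2 had a summed level of 1301 CPM, E1 replicate 3 had 866 and WT replicate 3 had 1186, against 263 or less in every KI-96 library. Where leaving out these 3 libraries changed a Hox result, its value without them is given.

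The 3 upstream windows shown here give the sequence before the start of a member with reads and of 2 members without. Each window is the 250 bases that end just before the RefSeq start of the gene on build GRCm38.p6, given 5′ to 3′ on the strand of the gene, with each CG dinucleotide in capitals. Hoxd1 is shown because it had the most reads of all members; its window is chr2:74762730-74762979 on the plus strand. Hoxa13, which patterns digits and the urogenital tract, is shown because its window holds the most CG dinucleotides and it had 0 reads; its window is chr6:52260881-52261130 on the minus strand. Hoxd4, a gene of the hindbrain and neck domain, also had 0 reads and holds few CG dinucleotides; its window is chr2:74721728-74721977 on the plus strand.
Hoxd1: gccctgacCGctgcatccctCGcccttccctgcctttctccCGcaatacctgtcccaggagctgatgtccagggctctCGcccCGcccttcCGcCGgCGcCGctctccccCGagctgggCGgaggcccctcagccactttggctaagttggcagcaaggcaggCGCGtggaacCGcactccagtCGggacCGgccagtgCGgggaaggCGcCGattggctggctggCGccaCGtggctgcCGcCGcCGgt
Hoxa13: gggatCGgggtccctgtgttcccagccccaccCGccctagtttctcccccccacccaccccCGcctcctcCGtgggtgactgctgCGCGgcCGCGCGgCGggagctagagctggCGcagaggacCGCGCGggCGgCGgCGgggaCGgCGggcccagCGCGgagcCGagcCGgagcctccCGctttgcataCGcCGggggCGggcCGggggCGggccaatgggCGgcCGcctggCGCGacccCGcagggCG
Hoxd4: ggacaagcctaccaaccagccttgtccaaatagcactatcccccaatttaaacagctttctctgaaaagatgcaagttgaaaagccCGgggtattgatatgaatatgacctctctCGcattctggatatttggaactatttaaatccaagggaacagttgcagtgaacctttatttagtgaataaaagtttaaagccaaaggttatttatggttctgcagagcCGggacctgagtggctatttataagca

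The Hoxd1 window holds 24 CG dinucleotides, the Hoxa13 window 35 and the Hoxd4 window 3. The RefSeq table held 24 windows for 22 of the 39 members. Their median was 12.5 CG dinucleotides, with a range of 2 to 35, against a median of 6 over 32851 windows of the same length. At least 10 CG dinucleotides were found in 62.5% of the Hox windows and in 37.8% of all windows. The 11 windows of members with reads had a median of 12 and the 13 windows of members with 0 reads a median of 13; the ranges, 3 to 28 and 2 to 35, overlapped. The letters TATAAA, searched on both strands, were in 4 of 24 Hox windows, 16.7%, and in 12.4% of all windows; the Hoxd4 window is one that holds them. For 18 of the 24 windows the first 30 transcribed bases lay in an annotated transcript of the gene; for the others the window may not sit at the start used in GENCODE.

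The clusters were almost silent in all 3 groups. In total 145 of 295917667 counts fell on the 39 members, and 20 of the 39 had 0 reads in every library. Among all 21906 protein-coding genes of the table, 85.8% had at least 1 read. Over all 15 libraries a count of 0 allows a level of up to 0.0101 CPM; within a group it allows up to 0.0415 in KI-96, 0.0399 in E1 and 0.0202 in WT. These limits and the Poisson intervals cover counting error only. Of the 585 counts made by 39 genes and 15 libraries, 523 were 0, 33 were 1, and 2 reached 10 or more.

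The reads were uneven along the clusters. HoxD had 78 reads, 53.8% of the total, HoxA had 44, HoxB 14 and HoxC 9. HoxA was read at the most genes, 8 of 11, against 4 of 10 in HoxB, 4 of 9 in HoxC and 3 of 9 in HoxD. The head-end paralog groups 1 to 3 had 88 reads with 7 of 8 genes read, groups 4 to 8 had 48 reads with 9 of 15 genes read, and the tail-end groups 9 to 13 had 9 reads with 3 of 16 genes read. Hoxd1 alone gave 69 of the 88 reads at the head end; without it, 19 reads on 6 of 7 genes remained. The reads of groups 9 to 13 numbered 2 in KI-96, 0 in E1 and 7 in WT.

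Hoxd1 (ENSMUSG00000042448.5, GRCm38 chromosome 2, 74762980 to 74765142, plus strand), which in the mouse takes part in wiring pain-sensing neurons, carried 47.6% of all Hox reads. Its raw counts were 1, 2, 4 and 16 in KI-96 replicates 1 to 4, and 3, 4, 6 and 2 in E1 replicates 1 to 4. In the 7 WT libraries they ran from 1 to 10 with a median of 3. The groups overlapped: KI-96 replicate 4 was the highest library, WT replicate 1 came next with 10, and the lowest libraries of KI-96 and of WT had 1 read each. In CPM, Hoxd1 averaged 0.274 ± 0.280 in KI-96 (SD, n = 4), 0.199 ± 0.0884 in E1 (SD, n = 4) and 0.218 ± 0.176 in WT (SD, n = 7). No annotated exon of another gene overlaps its exons. Per kilobase of exon its mean level was 0.122 RPKM, above 31.5% of protein-coding genes, whose median was 1.62 RPKM.

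Hoxa7 (ENSMUSG00000038236.8, GRCm38 chromosome 6, 52214491 to 52221854, minus strand), known for patterning the trunk skeleton and for its part in blood-forming cells, had 21 reads. The KI-96 libraries had 1, 0, 8 and 1 reads in replicates 1 to 4, and all 4 E1 libraries had 0. The WT libraries had 0 to 3 reads, with a median of 2. One library, KI-96 replicate 3, held 8 of the 10 KI-96 reads, and KI-96 and WT each had at least 1 library at 0, as had E1. The mean level was 0.135 ± 0.199 CPM in KI-96 (SD, n = 4) and 0.0736 ± 0.0548 in WT (SD, n = 7). An antisense transcript, Hoxaas3, covers 20.4% of the Hoxa7 exon length on the opposite strand; the labels do not say whether strand was used in counting, and reads of the pair cannot be told apart there.

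Hoxb4, known for a role in blood stem cells, had 8 reads: 1 in KI-96 replicate 4, 1 in E1 replicate 1, and 6 in WT, of which WT replicate 6 held 4. Hoxd8 also had 8 reads, 2 each in KI-96 replicates 1 and 4, 1 in E1 replicate 2, 2 in WT replicate 6 and 1 in WT replicate 7. For both genes the 3 groups overlapped, since each group had at least 1 library with 0 reads.

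The other members were read in scattered libraries. Hoxa9, a blood progenitor gene, had 5 reads, 3 of them in WT replicate 5 and 1 each in WT replicates 2 and 7. Hoxc8, which patterns the thorax, had 4: 1 in KI-96 replicate 3, 1 in E1 replicate 1 and 2 in WT replicate 6. Hoxb2, a hindbrain gene, had 3 reads, all in WT replicate 5, and Hoxc10, of lumbar motor neurons, had 3, with 2 in KI-96 replicate 4 and 1 in WT replicate 5. Hoxa2, of the hindbrain and pharyngeal arches, had 2 reads in WT replicate 4. Hoxa5, of the neck skeleton and lung, had 1 read in KI-96 replicate 4 and 1 in WT replicate 2. Hoxb5 had 1 in KI-96 replicate 1 and 1 in E1 replicate 1. A single read was found for Hoxa4 and Hoxc5, each in E1, and for Hoxa3, Hoxa10, Hoxb3, Hoxc6 and Hoxd3, each in WT. The members with 0 reads were Hoxa6, Hoxa11, Hoxa13, Hoxb1, Hoxb6, Hoxb7, Hoxb8, Hoxb9, Hoxb13, Hoxc4, Hoxc9, Hoxc11, Hoxc12, Hoxc13, Hoxd4, Hoxd9, Hoxd10, Hoxd11, Hoxd12 and Hoxd13. They include the tail-end genes of limb, kidney and prostate development. Exons of Hoxd3 and Hoxd4 overlap each other and other genes over 62.8% and 52.3% of their length, so a read there may have been left uncounted or split. Hoxb3, Hoxa11, Hoxb2 and Hoxa3 overlap other genes over 52.9%, 35.0%, 27.3% and 27.1%, mainly on the opposite strand. The same can hold for them if strand was not used in counting.

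**Figure D1:**
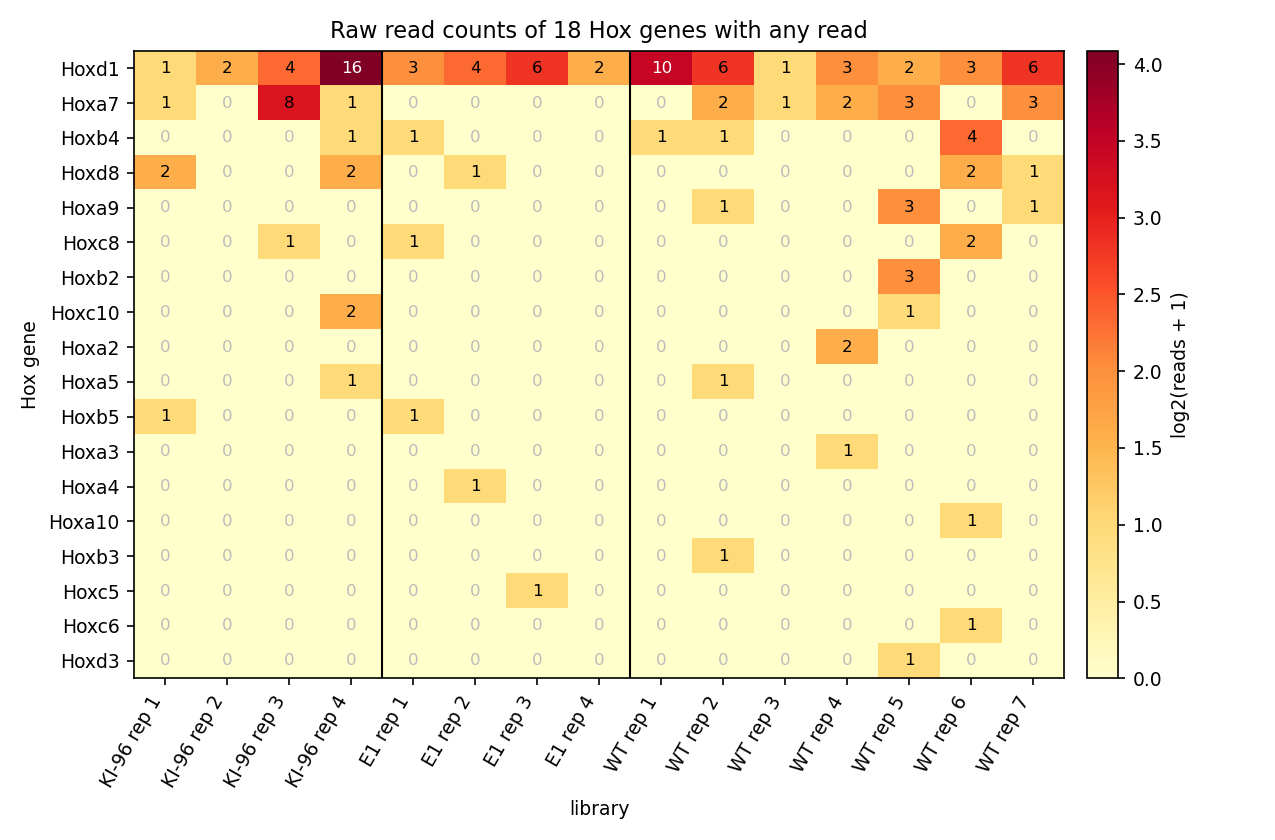
Raw counts of 18 Hox genes with any read (rows) in each library (columns, grouped as KI-96, E1 and WT), with colour on a log2(reads + 1) scale. Hoxd1 is read in all 15 libraries, and the 16 reads of KI-96 replicate 4 are the highest single count.

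With 1 read as the limit, 9 members were detected in KI-96, 8 in E1 and 16 in WT, where 7 libraries were summed against 4 in each other group. With at least 2 reads in a library the numbers were 5 in KI-96, 1 in E1 and 9 in WT. Over all protein-coding genes, 77.8% in KI-96, 77.6% in E1 and 80.3% in WT reached 2 reads in a library. Only Hoxd1 had 10 reads in a library, in KI-96 and in WT.

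Summed over all 39 members, the reads were 5, 2, 14 and 25 in KI-96 replicates 1 to 4, 6, 6, 7 and 3 in E1 replicates 1 to 4, and 12, 12, 2, 9, 14, 16 and 12 in WT replicates 1 to 7. As levels these are 0.127 to 1.07 CPM in KI-96, 0.164 to 0.365 in E1 and 0.116 to 0.672 in WT. KI-96 reached from near the lowest WT library to above the highest. The 4 E1 libraries lay above WT replicate 3, the lowest of WT at 0.116, and below the other 6 WT libraries, which ran from 0.472 to 0.672. The group means were 0.573 ± 0.421 in KI-96 (SD, n = 4), 0.291 ± 0.0883 in E1 (SD, n = 4) and 0.510 ± 0.190 in WT (SD, n = 7). Pooled over libraries, the rate was 0.636 CPM in KI-96 (95% exact Poisson interval 0.466 to 0.848), 0.292 in E1 (0.183 to 0.443) and 0.519 in WT (0.410 to 0.649). In KI-96, replicates 3 and 4 held 39 of the 46 reads. Leaving out those 3 cortex-marked libraries, the means were 0.235 in E1 and 0.576 in WT; no test was made of a sum over chosen genes. In whole tissue, fewer cells with Hox RNA and less Hox RNA per cell cannot be told apart.

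By cluster, HoxA averaged 0.181 ± 0.214 CPM in KI-96, 0.0274 ± 0.0316 in E1 and 0.184 ± 0.104 in WT (SD, n = 4, 4 and 7). HoxD averaged 0.329 ± 0.297 in KI-96, 0.213 ± 0.0967 in E1 and 0.241 ± 0.166 in WT. HoxB averaged 0.0277 in KI-96, 0.0256 in E1 and 0.0630 in WT, and HoxC averaged 0.0348 in KI-96, 0.0258 in E1 and 0.0223 in WT. The HoxA reads were 1, 0, 9 and 4 in KI-96 replicates 1 to 4, 0, 1, 0 and 1 in E1 replicates 1 to 4, and 1, 4, 1, 6, 7, 4 and 5 in WT replicates 1 to 7. E1 and WT met at 1 read. In CPM the highest E1 library, replicate 2 at 0.05495, lay just under the lowest WT library, replicate 1 at 0.05604. Each held 1 read, so that gap is one of library depth. The HoxD sum of KI-96 replicates 1 to 4 was 0.204, 0.127, 0.215 and 0.770 CPM. Single libraries set several of these means. In KI-96, HoxA averaged 0.0798 without replicate 3, HoxD 0.182 and HoxC 0.0179 without replicate 4, and HoxB 0.0143 without replicate 1. In E1, HoxA averaged 0.0182 without replicate 2, HoxC 0.0171 without replicate 3, and HoxB 0 without replicate 1. In WT, HoxC averaged 0.00711 without replicate 6. Leaving out the 3 cortex-marked libraries, E1 averaged 0.131 for HoxD and 0.0512 for HoxB. With Hoxd1 left out, the 38 other members averaged 0.299 ± 0.227 CPM in KI-96, 0.0925 ± 0.0487 in E1 and 0.292 ± 0.173 in WT.

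**Figure D2:**
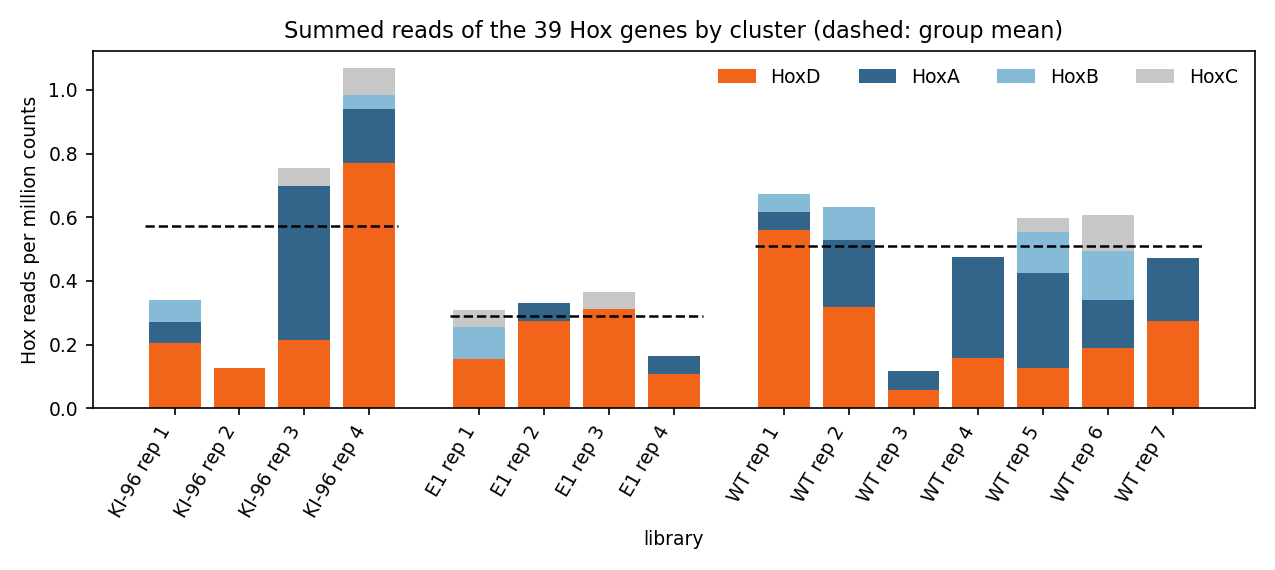
Summed Hox level in CPM in each library, stacked by cluster, with the group mean as a dashed line. KI-96 replicate 4 reaches 1.07 CPM, the E1 libraries lie between 0.164 and 0.365, and WT replicate 3 is the lowest library at 0.116.

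Tissue from outside the striatum can carry Hox RNA, so marker levels are given beside these sums. KI-96 replicate 4, with the most Hox reads, had summed markers of meningeal fibroblasts of 336 CPM and of choroid plexus of 101, the highest of KI-96 in both. KI-96 replicate 3, with 14 Hox reads, had the lowest meningeal sum of all libraries at 74.8. E1 replicate 4, with 3 Hox reads, had a meningeal sum of 333. Over the groups, the meningeal sums were 74.8 to 336 in KI-96, 131 to 333 in E1 and 203 to 356 in WT, with 10 of 10 markers read. Most of the meningeal sum is Ptgds, with a mean of 212 CPM, while each other listed gene averaged 5.62 CPM or less. The choroid plexus sums were 36.99 to 101 in KI-96, 28.2 to 92.2 in E1 and 50.0 to 419 in WT, again with 10 of 10 markers read. The sums for brainstem and spinal cord neurons, which do express Hox genes, were 52.0 to 77.6 in KI-96, 43.4 to 71.8 in E1 and 44.0 to 74.9 in WT. That sum is nearly all Ecel1, with a mean of 60.4 CPM; the other 9 listed genes averaged 0.766 CPM or less each. Blood cell sums were 86.05 to 146.4 in KI-96, 60.04 to 502.3 in E1 and 78.12 to 230.2 in WT. Those of endothelium and mural cells were 184.5 to 241.8, 186.4 to 237.1 and 145.9 to 271.8 in the same order. Skin and muscle sums were 13.51 to 38.04, 27.13 to 44.03 and 29.44 to 40.01. Most of the skin and muscle sum is Krt10, with a mean of 25.6 CPM, while each other listed gene averaged 4.46 CPM or less. The part of these tissues in the Hox sums was not tested.

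E1 was compared with WT gene by gene over the whole table. None of the 39 members passed the default low-count filter of edgeR, so they were tested in the same model fitted to all 36747 genes with at least 1 read, 19 members among them. No member was called at an adjusted p under 0.05 by edgeR's quasi-likelihood test (0 of 19), where 0.0% of all genes were called. At an unadjusted p under 0.05 there was 1 member, Hoxa7, lower in E1, or 5.26% of the members; 6.78% of all genes had such a p, and 3.8% had it and were lower in E1. Hoxa7 had 0 reads in E1 and 11 in WT, a pooled rate of 0.0742 CPM. With 3 counts over the E1 group as the limit of a count of 0, the WT rate was 1.86 times the E1 limit. This ratio leaves out the counting error of the WT reads, so it is not a lower bound. The 95% exact Poisson intervals, 0.0370 to 0.133 CPM in WT and 0 to 0.0490 in E1, overlapped. The edgeR p of Hoxa7 was 0.0223 and its adjusted p 0.688. Leaving out the 3 cortex-marked libraries, the 10 WT reads that were left, 0.0763 CPM, lay under the E1 limit of 0.0792 CPM. Only E1 replicates 1 and 4 remain there, so that limit is higher than the 0.0399 CPM of all E1 libraries. In that fit 0 members had an unadjusted p under 0.05. Hoxd1 had a log2 fold change of -0.10 (SE 0.69, approximate 95% interval -1.44 to 1.25) with an edgeR adjusted p of 1.0, so differences larger than 2-fold in either direction stayed within the interval; leaving out the 3 cortex-marked libraries it was -0.85. DESeq2 and limma-voom called 0 members too; DESeq2 gave an adjusted p to 1 of the 19, and at an unadjusted p under 0.05 it had 0 members and limma-voom 1.

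KI-96 was compared with WT in the same model and against the same 7 WT libraries. Again 0 of 19 members were called by edgeR, where 0.00272% of all genes were called; 2 of the 19 had no read in either group and could not have differed. At an unadjusted p under 0.05 there were 0 members, against 8.46% of all genes; DESeq2 and limma-voom also had 0 at an unadjusted p under 0.05. Limma-voom called 0, and DESeq2 gave an adjusted p to 1 member only. Hoxd1 had a log2 fold change of 0.42 (SE 0.65, approximate 95% interval -0.85 to 1.69; edgeR adjusted p = 0.842). The sign rested on 1 library: without KI-96 replicate 4 it was -0.58. Hoxa7 had a log2 fold change of 0.85 (SE 0.98, approximate 95% interval -1.07 to 2.77; edgeR adjusted p = 0.754), and without KI-96 replicate 3 it was -0.85.

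KI-96 was also compared with E1, which uses the same KI-96 and E1 libraries as the comparisons above. By edgeR 0 of 19 members were called, where 0.00816% of all genes were called; 8 of the 19 had no read in either group, which leaves 11 that could be compared. At an unadjusted p under 0.05 there was 1 member, Hoxa7, higher in KI-96; 9.07% of all genes had such a p, and 4.84% had it and were higher in KI-96. Among genes with a read in either group this is 9.09% of the 11 members and 9.83% of all genes. Hoxa7 had 0 reads in E1 and 10 in KI-96, a pooled rate of 0.138 CPM, which was 3.47 times the E1 limit. This ratio leaves out the counting error of the KI-96 reads, so it is not a lower bound. The 95% exact Poisson intervals, 0.0663 to 0.254 CPM in KI-96 and 0 to 0.0490 in E1, did not overlap. They leave out the spread between mice. The edgeR p of Hoxa7 was 0.00775 and its adjusted p 0.407. Both the ratio and this p rested on KI-96 replicate 3. Without it, the 2 KI-96 reads, 0.0372 CPM, lay under the E1 limit of 0.0399 CPM, and 0 members had an unadjusted p under 0.05. Leaving out the 3 cortex-marked libraries, the KI-96 rate was 1.74 times the E1 limit. DESeq2 and limma-voom each had Hoxa7 as the 1 member at an unadjusted p under 0.05; limma-voom called 0, and DESeq2 gave no member an adjusted p. Hoxd1 had a log2 fold change of 0.52 (SE 0.75, approximate 95% interval -0.95 to 1.99; edgeR adjusted p = 0.852), -0.48 without KI-96 replicate 4 and 1.11 without the cortex-marked libraries. In none of the 3 comparisons did the libraries of a member separate completely: 0 of 19 members had groups that did not overlap, where 0.988% of all genes did for E1 against WT, 0.732% for KI-96 against WT and 2.96% for KI-96 against E1.

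**Figure D3:**
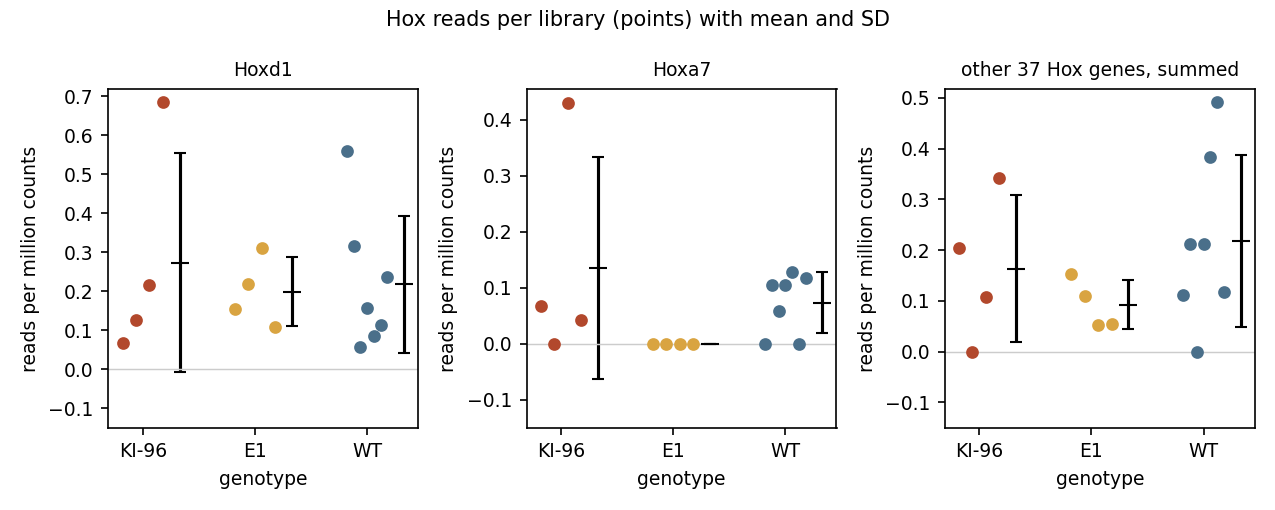
Level in CPM of Hoxd1, of Hoxa7 and of the 37 other Hox genes summed, by genotype; points are libraries, and the bar beside them is the mean with its SD, which can reach below 0. The highest point for Hoxd1 is KI-96 replicate 4 and the highest for Hoxa7 is KI-96 replicate 3, while all 4 E1 libraries show 0 for Hoxa7.

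Genes beside the clusters were expressed. Within 500 kb on either side of the 4 clusters lie 50 other protein-coding genes, of which 39 had reads in all 15 libraries and 3 had 0 reads, with a median level of 4.38 RPKM. At HoxD (GRCm38 chromosome 2, 74668310 to 74765142), Evx2, a homeobox gene 8.75 kb from the cluster, had 1 read in all, while Mtx2, a mitochondrial membrane gene 60.7 kb beyond Hoxd1, had 9021 reads and a level of 8.19 RPKM. Lnpk, on the other side at 88.9 kb, had 12366 reads and 4.53 RPKM. At HoxA (chromosome 6, 52155590 to 52260880), the homeobox gene Evx1 at 52.6 kb had 0 reads and the adaptor gene Skap2 at 143 kb had 7053 reads and 2.10 RPKM. At HoxC (chromosome 15, 102921103 to 103036852), the nearest neighbour was the DNA repair gene Smug1 at 116 kb with 8171 reads and 4.51 RPKM. The surroundings of HoxB (chromosome 11, 96194316 to 96368256) were lower: Ttll6 at 28.9 kb had 458 reads and 0.386 RPKM, and Skap1 at 96.3 kb had 235 reads and 0.106 RPKM.

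**Figure D4:**
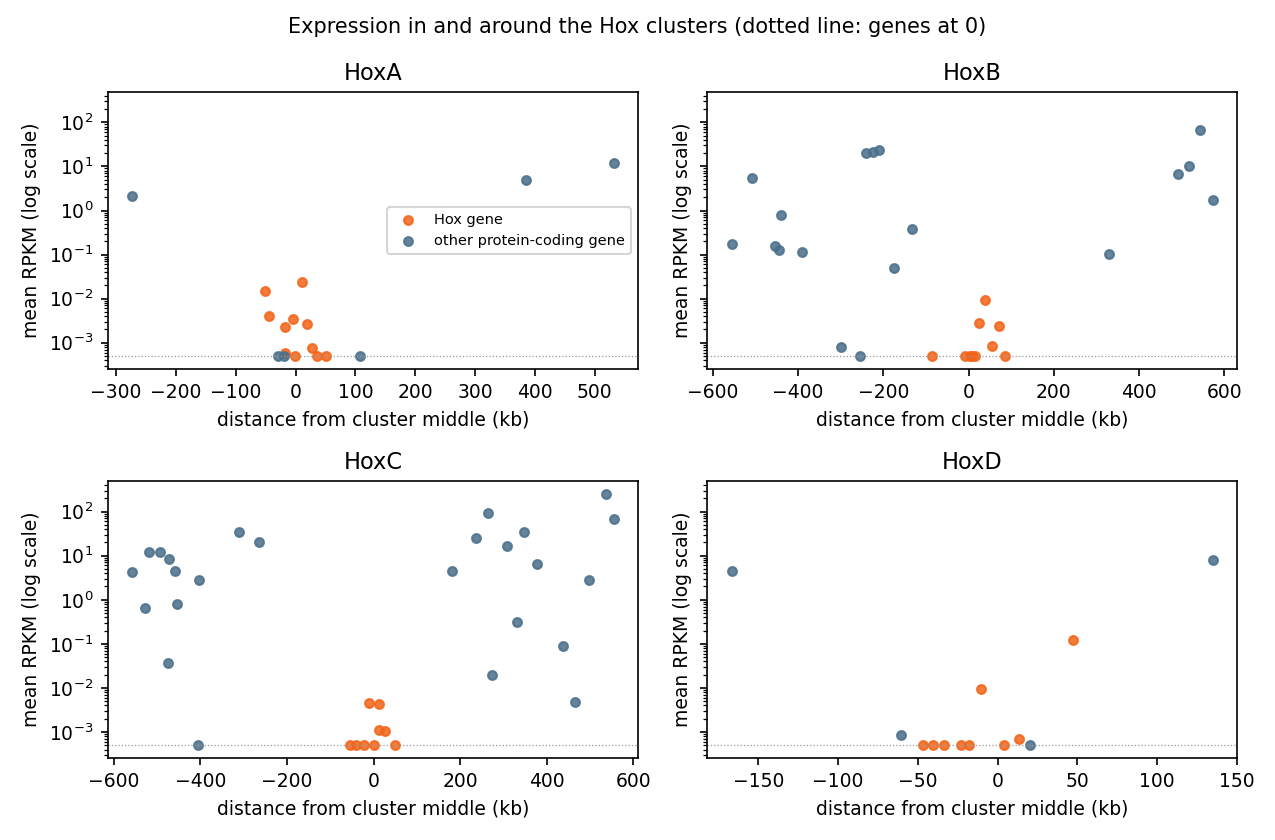
Mean level over the 15 libraries in RPKM (log scale) against distance from the middle of each cluster in kb, for Hox genes and for other protein-coding genes within 500 kb; genes at 0 are drawn on the dotted line. The Hox genes lie at or below 0.122 RPKM, and the median of the 50 neighbours is 4.38 RPKM.

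The noncoding RNAs of the clusters were also near 0. Of 16 listed, 11 had 0 reads, among them Hotair and Hottip, and the other 5 had 17 reads in total. Hoxaas2 had 8 reads in 5 libraries: 5 in KI-96, 2 in E1 and 1 in WT. Hotairm1 had 5 reads in 2 libraries: 4 in KI-96, 0 in E1 and 1 in WT. Halr1 had 2 reads in E1, Hoxb3os 1 in E1 and Hoxaas3 1 in WT. None of the 16 passed the low-count filter. Of 31 other homeobox and developmental regulators that were listed as silenced in forebrain, 7 had 0 reads and 4 passed the low-count filter. These 4 were Gbx1 with 1686 reads, En2 with 800, Tbx18 with 252 and Gbx2 with 190. Each was read in all 15 libraries, so the description of the list does not hold for them. The 27 others did not pass the filter. Among them Tbx15 was also read in all 15 libraries, with 83 reads, and Lhx3 in 12, with 39 reads.

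The Polycomb and trithorax machinery was expressed in all groups. With all libraries in the fit, edgeR called no gene of the 7 lists below in any comparison. The lists, and the shares given for them, also cover HOX cofactors, other regulators and neighbours of the clusters. The lists held 12 PRC2 subunits, 21 PRC1 subunits, 7 enzymes or cofactors that remove Polycomb marks, 10 trithorax-group and MLL complex genes, 9 TALE-class HOX cofactors, the 4 regulators above and 19 tested neighbours of the clusters. In the edgeR model of 18278 genes past the filter, 0 members of these 7 lists were called in E1 against WT, where 0.00547% of genes were called, and 0 in KI-96 against WT and in KI-96 against E1, where 0.0% were. At an unadjusted p under 0.05 there were 4 of 82 list members in E1 against WT, or 4.88% beside 8.75% of all genes, 9 in KI-96 against WT, or 10.98% beside 10.5%, and 13 in KI-96 against E1, or 15.85% beside 14.3%. Limma-voom called 0 of them, and DESeq2 called 1, Meis1 in KI-96 against E1. For PRC2 subunits the median log2 fold change was -0.00 in E1 against WT, -0.14 in KI-96 against WT and -0.12 in KI-96 against E1, beside -0.00, -0.01 and -0.00 over all genes tested. For PRC1 subunits the medians were -0.01, -0.00 and -0.02, and for the trithorax and MLL genes 0.02, 0.04 and 0.08, in the same order of comparisons.

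Jarid2, which guides PRC2 to its targets, had the smallest p of its list in E1 against WT, with a log2 fold change of 0.34 (SE 0.10, edgeR adjusted p = 0.448); Eed, the subunit that reads the mark, had -0.20 (SE 0.13). Among PRC1 genes Cbx8, a chromodomain subunit, had 0.28 (SE 0.11). The demethylase gene Kdm6a had 0.24 (SE 0.12) and the deubiquitinase gene Bap1 0.11 (SE 0.09). Kmt2c, an MLL-family methyltransferase gene, had -0.22 (SE 0.12) and Dpy30 had 0.27 (SE 0.15). The cofactor gene Meis1 had -0.31 (SE 0.18), and the homeobox gene Gbx1 and the T-box gene Tbx18 had -0.87 (SE 0.43) and -0.31 (SE 0.42). The neighbours Smug1 and Snx10 had 0.43 (SE 0.14) and 0.24 (SE 0.10). None of these passed the edgeR threshold in E1 against WT. Without E1 replicate 4, Jarid2 (0.45), Smug1 (0.56) and Gbx1 (-1.81) were called. That fit keeps the cortex-marked E1 replicates 2 and 3. In the edgeR fit without the 3 cortex-marked libraries, 0 list members were called. That fit keeps only replicates 1 and 4 of E1, so it can miss a difference that more libraries would show.

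In KI-96 against WT, the log2 fold change was 0.19 for Jarid2 (SE 0.10) and -0.13 for Rbbp7, a histone-binding subunit (SE 0.08). Yaf2, of variant PRC1, had -0.27 (SE 0.10). The demethylase genes Kdm6a and Kdm6b had 0.24 (SE 0.12) and 0.18 (SE 0.11). Kmt2d, an MLL-family methyltransferase gene, had 0.47 (SE 0.16) with an edgeR adjusted p of 0.362, the smallest of these lists in this comparison, and Men1 had 0.19 (SE 0.07). Meis3 and Meis1 had -0.29 (SE 0.12) and 0.42 (SE 0.18), Gbx1 and Gbx2 had 0.40 (SE 0.41) and 0.31 (SE 0.46), and the neighbours Hnrnpa3 and Cbx5 had 0.21 (SE 0.10) and 0.23 (SE 0.11).

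In KI-96 against E1, Meis1, a TALE-class partner of HOX proteins, had the smallest p of all these genes: it averaged 17.1 CPM in KI-96 and 10.3 in E1, a log2 fold change of 0.73 (SE 0.20) with an edgeR adjusted p of 0.207. DESeq2 called it, with a log2 fold change of 0.74 and an adjusted p of 0.0434, and edgeR called it without E1 replicate 4, at 0.95. Pbx4 had -0.23 (SE 0.16). Gbx1 averaged 7.81 in KI-96 and 3.22 in E1, a log2 fold change of 1.27 (SE 0.48, edgeR adjusted p = 0.273), and was called without E1 replicate 4, at 2.20. The fit without E1 replicate 4 keeps the cortex-marked E1 replicates 2 and 3. In the edgeR fit without the 3 cortex-marked libraries, 0 list members were called, and so neither Meis1 nor Gbx1. Only replicates 1 and 4 of E1 remain in that fit, so it can miss a difference that more libraries would show. Tbx18 had 0.56 (SE 0.48). Rbbp7 and Phf19 of PRC2 had -0.21 (SE 0.09) and -0.91 (SE 0.38), and Pcgf1 and Phc3 of PRC1 had -0.42 (SE 0.18) and 0.32 (SE 0.14). Asxl1 and Asxl2, partners of the Bap1 deubiquitinase, each had 0.22, with an SE of 0.12 for Asxl1 and 0.14 for Asxl2. Kmt2d had 0.59 (SE 0.18) and Psip1 -0.21 (SE 0.09), and the neighbours Smug1 and Copz1 had -0.50 (SE 0.16) and -0.26 (SE 0.11).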

How the data were processed

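The authors deposited raw read counts per gene, 1 column per mouse, with no normalization. STAR, HTSeq, build GRCm38 and DESeq2 1.24.0 are named, per the submitters' processing notes, with no role or setting; the annotation release and strandedness are likewise not given in the sources used. Symbols, types and exon lengths came from GENCODE M21, to which 54079 of 54232 identifiers matched. No column was left unmapped and no row lacked a gene.

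CPM (counts scaled by the library total) use the column totals; RPKM divides these by merged exon length in kb and was used only to set genes side by side. Counts of all genes past the low-count filter (minimum count 10, 18278 genes), and separately of all 36747 genes with at least 1 read, were fitted in edgeR 4.0.16 (R 4.3.3; TMM, robust quasi-likelihood, group as factor, 15 libraries) and adjusted by Benjamini-Hochberg at 0.05. The scripts were tested on simulated data. CPM of Meis1 and Gbx1 use TMM-scaled totals. Intervals of fold changes are 1.96 SE either way. Alternatives were DESeq2 1.42.0, limma-voom (3.58.1), RLE scaling, fits of 2 groups, a replicate block, no filter and leaving out libraries. Each library has its own mouse number, so replicates are separate animals.

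The members and gene lists were chosen with earlier results of these data known. The rule for naming was library values for the 12 members with the most reads, and of each list the genes past the threshold or else the 2 with the smallest p; a few genes that this rule picks are not reported here, though sums and counts include them. Protein sequences were not used here.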

Additional observations from a re-analysis of the deposited data

Results flagged for a closer look

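Within each group, the summed Hox level in CPM of each cluster and of all clusters was searched for a library far from the others. The usual rate of about 1 in 20 groups marked by chance does not hold for sums of a few reads. A library with reads is always marked when the rest of its group is at 0. The rule marked 4 sums. The HoxD sum of KI-96 replicate 4 was 0.770 CPM, from 18 reads, of which 16 were Hoxd1; the other KI-96 libraries had 0.127 to 0.215. The HoxB sum of E1 replicate 1 was 0.102, from 2 reads, while the other 3 E1 libraries had 0. The HoxC sum of WT replicate 6 was 0.114, from 3 reads; WT replicate 5 had 0.0426 and the other 5 WT libraries had 0. The sum over all clusters in WT replicate 3, 1 of the 3 libraries with high cortical markers, was 0.116, from 2 reads, and so was the lowest of the WT group.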

How the results depend on the processing

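The count of Hox members called was 0 in the 60 alternative fits by edgeR and limma-voom over the 3 comparisons. DESeq2 gave an adjusted p to at most 1 member, so its count of 0 says nothing of the others. Counts over all genes moved more. For E1 against WT edgeR called 1 gene; DESeq2 called 58, limma-voom 2, the 2 groups alone 0, the fit without the 3 libraries with high cortical markers 0, and no low-count filter 0, with 0 to 257 when 1 library was left out (257 without E1 replicate 4). For KI-96 against WT the count was 0, with 72 by DESeq2, 1 with no filter and 0 to 11 with 1 library left out. For KI-96 against E1 it was 0, with 206 by DESeq2, 3 with no filter and 0 to 190 with 1 library left out. Pathway genes called in KI-96 against E1 numbered 1 by DESeq2 and 0 to 2 with 1 library left out, and in E1 against WT 0 to 3.

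Replicate numbers recur across groups but belong to different mice. Same-numbered libraries correlated at -0.103 to 0.194 after centring each gene within its group. No correlation was computed for differently numbered libraries, so whether the number marks a shared batch was not tested. With the number as a replicate block, 4 genes were called in E1 against WT and 6 in KI-96 against WT, and the Hoxd1 log2 fold change in KI-96 against WT was -0.003. Under the block 0 members had an unadjusted p under 0.05 in E1 against WT, Hoxa7 included.

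The sign of Hoxd1 was unstable and no adjusted p passed. In E1 against WT its log2 fold change was 0.15 by limma-voom and -0.41 to 0.32 with 1 library left out (0.01 without E1 replicate 1, 0.11 without E1 replicate 4, 0.32 without WT replicate 1 and 0.02 without WT replicate 2). With 1 library left out it was -0.58 to 0.83 in KI-96 against WT and -0.48 to 0.83 in KI-96 against E1. Without the 3 libraries with high cortical markers it was -0.85, 0.26 and 1.11 in E1 against WT, KI-96 against WT and KI-96 against E1. Hoxa7 in KI-96 against WT ranged from -0.85 to 1.23 with 1 library left out. Over the alternatives, adjusted p-values of Hoxa7 by the tools run were 0.481 to 1.0 in E1 against WT and 0.176 to 0.71 in KI-96 against E1. The cause of these changes was not tested.

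With Hoxd1 left out, the HoxD mean was 0.0555 CPM in KI-96, 0.0137 in E1 and 0.0225 in WT, and the mean over all clusters 0.299 in KI-96, 0.0925 in E1 and 0.292 in WT. With the noncoding RNAs added, the HoxA mean was 0.29 CPM in KI-96, 0.0803 in E1 and 0.201 in WT, against 0.181, 0.0274 and 0.184 without them. Members detected in any library numbered 10, 2 and 1 at a minimum of 2, 5 and 10 reads in a library, with 5, 2 and 1 in KI-96, 1, 1 and 0 in E1, and 9, 1 and 1 in WT. In 125 alternatives, the KI-96 sums above among them, a sum moved by less than 1 SD of its group. The SD is large here, and single libraries that move a cluster mean by more than 1.5 times are named with the cluster means. With 145 Hox reads in all, depth limits every statement on a single member.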
